A study of Mus musculus with 2 samples.

Results

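The NRF2 oxidative stress genes are 10 genes of the KEAP1-NRF2 pathway, taken from a list of symbols, out of 55536 annotated genes in the deposited tables. They are the regulators Nfe2l2, Keap1 and Sqstm1, the glutathione genes Slc7a11, Gclc and Gclm, the thioredoxin genes Txnrd1 and Srxn1, and the heme and quinone enzymes Hmox1 and Nqo1. Each symbol matched 1 gene entry, and all 10 are annotated protein-coding. They were followed in total RNA, depleted of ribosomal RNA, from the nucleoplasmic fraction of bone-marrow-derived macrophages of C57BL/6J mice. These primary cells are grown from bone marrow, and had been given Lipid A, the part of bacterial lipopolysaccharide that Toll-like receptor 4 recognises, at 100 ng/ml for 60 min. The single group holds 2 biological replicate libraries, made from 1 µg of RNA for replicate 1 and 500 ng for replicate 2. The labels name another fraction term, nucleus, for the same samples, record neither age nor sex, and give both biosamples the same donor label, so the spread between them need not be that between animals. Cells without Lipid A and other fractions were not analysed here, so every value below is a level, or a difference between the libraries, and never a response to Lipid A.

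NRF2, the protein of Nfe2l2, is a transcription factor that KEAP1 holds and passes to a CUL3 ubiquitin ligase for destruction. Oxidants and electrophiles modify cysteines of KEAP1, and NRF2 then accumulates, pairs with a small MAF protein and binds antioxidant response elements near its target genes. The targets make glutathione, recycle thioredoxin, degrade heme and reduce quinones, and in macrophages the pathway is known for limiting oxidative damage and inflammatory gene expression. Nuclear RNA holds newly made and retained transcripts, so levels in it are not levels of the cytoplasmic mRNA that is translated.

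A core often given for antioxidant response elements is TGACNNNGC, the only form searched here, and a related element, TGAGTCA, is the binding site of AP-1. Promoter windows of RefSeq (build GRCm38.p6), from 250 bases before to 50 after each start, were held for 8 of the 10 genes, with 10 windows in all because Txnrd1 has 3 starts. On either strand, the core occurred in 4 of the 10 windows, those of Nfe2l2, Gclm and Srxn1 and the second start of Txnrd1. Among all 32851 windows 12.4% held it. The AP-1 letters occurred in the Srxn1 window only among the 10, at 2 places, and in 5.2% of all windows. No match to either was found in the windows of Keap1, Slc7a11, Sqstm1, Nqo1 and the other starts of Txnrd1. Sequence outside the windows and other forms of the core were not searched, so a window without a match does not mean that the gene lacks such an element. The sites are shown because these letters are often given for the elements near targets of the pathway. Each is printed with 10 flanking bases on both sides, 5′ to 3′ on the gene's strand, and the capitals mark the match, so a core that lies on the other strand is shown as its reverse complement:
Nfe2l2, chr2:75704885-75704913, minus strand: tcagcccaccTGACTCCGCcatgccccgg
Gclm, chr3:122245413-122245441, plus strand: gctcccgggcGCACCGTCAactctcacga
Txnrd1, second start, chr10:82859104-82859132, plus strand: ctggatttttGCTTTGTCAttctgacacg
Srxn1, chr2:152105542-152105570, plus strand: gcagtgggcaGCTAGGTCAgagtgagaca

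The core lay from -240 to -232 in Nfe2l2, from -134 to -126 in Gclm and from -92 to -84 at the second start of Txnrd1, counted from the RefSeq start. In Srxn1 it lay from 28 to 36, inside the transcript, and both AP-1 matches lay before the start, from -102 to -96 and from -45 to -39. The AP-1 match from -45 to -39 is followed by gc, so it differs from the core that was searched only by G in place of C. The stretches before the first annotated start are shown whole for Srxn1, which has both AP-1 matches in capitals, and for the second start of Txnrd1, which led the starts of that gene here:
Srxn1, chr2:152105274-152105515, plus strand: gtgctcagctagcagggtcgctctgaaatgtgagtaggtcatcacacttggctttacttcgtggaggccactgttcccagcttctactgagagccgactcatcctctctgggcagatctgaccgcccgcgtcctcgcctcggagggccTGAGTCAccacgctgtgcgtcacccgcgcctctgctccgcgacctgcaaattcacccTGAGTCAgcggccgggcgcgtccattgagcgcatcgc
Txnrd1, second start, chr10:82858956-82859178, plus strand: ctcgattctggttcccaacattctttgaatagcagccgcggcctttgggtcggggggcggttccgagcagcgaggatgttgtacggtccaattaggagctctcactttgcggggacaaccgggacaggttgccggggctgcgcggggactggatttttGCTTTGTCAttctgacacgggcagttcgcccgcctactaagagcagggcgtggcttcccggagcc

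The 10 genes differed widely in level. In TPM, the share of a library's transcripts after correction for length, Sqstm1 was far above the others, Txnrd1 and Nfe2l2 followed, Slc7a11 came next, Hmox1 and Srxn1 lay near the middle, and Keap1, Gclc, Gclm and Nqo1 were low. At least 1 TPM was reached in both libraries by 8 of the 10, at least 10 TPM by 6 and at least 100 TPM by 1. Of all 22015 protein-coding genes of the nuclear genome, 39.2% reached 1 TPM, 14.4% reached 10 TPM and 1.39% reached 100 TPM. The median of log2(TPM + 1) over the 10 genes was 3.98 ± 0.0018 (SD, n = 2), against 0.32 ± 0.05 over all protein-coding genes. That median falls between Hmox1 and Srxn1, whose TPM happened to be nearly equal in the libraries. Rescaled over protein-coding genes, their TPM were 61.7 and 84.0 for Hmox1 and 55.0 and 73.6 for Srxn1. The small SD therefore does not describe how closely the libraries match. The TPM of the 10 summed to 873 in replicate 1 and 606 in replicate 2, and Sqstm1 alone made up 56.8% and 59.6% of it. Neighbours in the order stood apart in their ranges over the libraries, except for Txnrd1 and Nfe2l2, whose ranges overlapped, and Gclc and Gclm, whose order differed between the libraries. Hmox1 and Srxn1 lay close together, and the second quantification put Srxn1 above Hmox1. The gap of Keap1 over Gclc was small. In replicate 2, 1.21 of the 3.24 TPM of Keap1 lay on Keap1-203, a short transcript given 3 counts. On transcripts annotated protein-coding, Keap1 had 2.44 and 2.04 TPM and Gclc 2.29 and 2.09 TPM, an order that differed between the libraries. By mean counts scaled to library size, without length correction, Gclc was above Keap1. Here too the order differed between the libraries, with Keap1 above in replicate 1 and Gclc above in replicate 2. In bulk RNA, fewer cells with a transcript and less of it per cell cannot be told apart.

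**Figure D1:**
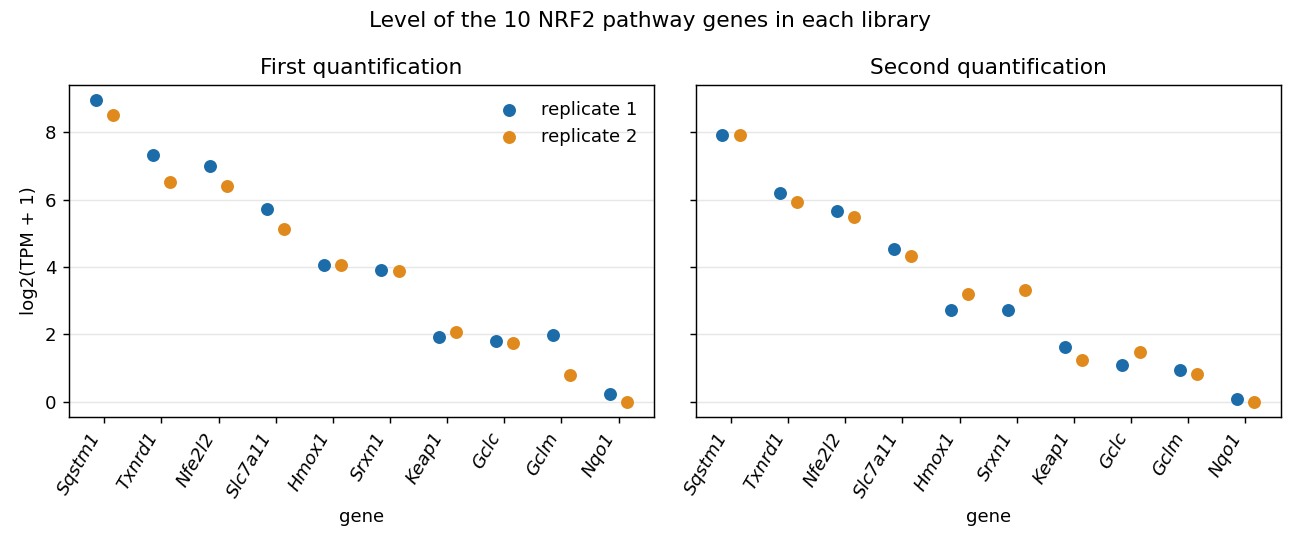
Level of each gene as log2(TPM + 1) in replicate 1 (left point) and replicate 2 (right point), in the first quantification, made from transcriptome alignments, and the second, made directly from the reads. Sqstm1 was highest and Nqo1 lowest in both, and every value sat lower in the second apart from Gclm in replicate 2 and Nqo1 at 0 in replicate 2.

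The tables held 21115765 expected counts on annotated genes in replicate 1 and 15607391 in replicate 2, and a floor of 3 counts stands for 0.142 and 0.192 CPM (counts scaled to library size). Intervals and floors cover counting error only. All 6 macrophage markers (Csf1r, Adgre1, Cd68, Itgam, Lyz2 and Mertk) were above 10 TPM, from 32.6 to 1939 TPM in replicate 1 and from 20.2 to 1939 in replicate 2. The 15 markers of T cells, B cells, neutrophils, erythroid cells and fibroblasts reached at most 1.34 and 0.87 TPM, and the T cell markers Cd3d, Cd3e and Cd3g were at 0. TPM of protein-coding genes ran higher in replicate 1, with a median log2 ratio of replicate 1 over replicate 2 of 0.42, so TPM equal in both libraries goes with a lower scaled count in replicate 1. The second quantification gave lower TPM for these genes. Its median difference, first over second on the log2(TPM + 1) scale, was 0.84 for the 10 genes, from 0.07 to 1.12, and 0.60 for 8993 protein-coding genes with a mean of at least 1 TPM.

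Among the regulators, Nfe2l2 RNA was abundant and Keap1 RNA was low. Nfe2l2 (ENSMUSG00000015839.6, chr2:75675513-75704641 in mm10, minus strand) had 127 TPM in replicate 1 and 83.3 TPM in replicate 2, from 5688 and 3582 expected counts. It ranked 343 and 376 among 22015 protein-coding genes. Keap1 (ENSMUSG00000003308.15, chr9:21229730-21239361, minus strand), the sensor that holds NRF2, had 2.79 and 3.24 TPM, from 184 and 151 expected counts. The log2 ratio of Keap1 over Nfe2l2 was -5.51 and -4.68, with a mean of -5.09 ± 0.58 (SD, n = 2), a 34.2-fold difference that exceeded its spread. The mean log2 ratio was smaller in size by CPM, at -4.76, and in the second quantification, at -4.79. Of the NRF2 degradation list, which holds the CUL3 ligase and other turnover genes, 6 of 6 reached 1 TPM and 3 reached 10 TPM. Cul3, the scaffold of that ligase, was its highest member at 24.2 and 18.9 TPM, and Dpp3, a peptidase that binds KEAP1, its lowest by the mean at 5.79 and 5.75 TPM. In replicate 2 Dcaf11, with 7.95 and 4.62 TPM, was below Dpp3.

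Nfe2l2 also stood above the factors that share its binding sites. Bach1, a repressor that competes for antioxidant response elements, had 40.7 and 27.9 TPM, a log2 ratio to Nfe2l2 of -1.61 ± 0.04 (SD, n = 2). Nfe2l1, a related activator, had 49.2 and 29.6 TPM and a log2 ratio to Nfe2l2 of -1.43 ± 0.09 (SD, n = 2). Both lay below Nfe2l2 in each library. Without correction for length, by CPM, the mean log2 ratio was -0.09 for Bach1 and -0.57 for Nfe2l1. In the second quantification it was -1.58 for Bach1 and -0.80 for Nfe2l1. The size of the Bach1 gap thus changed with the length correction, and that of Nfe2l1 with the length correction and with the quantification. Of the 8 genes in the list of such factors, 5 reached 1 TPM and 4 reached 10 TPM in both libraries, with Nfe2l1 highest and Nfe2, an erythroid factor, lowest at 0.23 and 0.16 TPM. Among the 10 genes, Txnrd1, a target of NRF2, exceeded Nfe2l2 by 0.24 ± 0.14 on the log2(TPM + 1) scale (SD, n = 2).

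Sqstm1 (ENSMUSG00000015837.15, chr11:50199366-50210827, minus strand) encodes p62, an autophagy receptor that captures KEAP1 and is itself an NRF2 target. It had 496 and 361 TPM, from 14291 and 10529 expected counts, and ranked 48 and 52 among protein-coding genes. Nbr1, a related autophagy receptor, had 12.4 and 9.18 TPM. Sqstm1 exceeded it by 5.31 ± 0.02 log2 units (SD, n = 2), a 39.7-fold difference, and by 3.95 log2 units by CPM and 4.88 in the second quantification. All 6 other autophagy genes reached 1 TPM and 4 reached 10 TPM, from Tax1bp1, highest by its mean at 61.8 and 46.7 TPM, down to Calcoco1 at 3.83 and 3.63 TPM. In replicate 1 Optn, with 67.7 and 40.1 TPM, was above Tax1bp1.

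The glutathione genes split into an abundant transporter and 2 scarce enzyme subunits. Slc7a11 (ENSMUSG00000027737.10, chr3:49892526-50443614, minus strand) encodes xCT, which imports cystine for glutathione synthesis. It had 51.8 and 34.0 TPM from 4992 and 3362 expected counts, and ranked 922 and 1025 among protein-coding genes. Its partner chain Slc3a2, which also serves other amino acid transporters, had 151 and 119 TPM, and the log2 ratio of Slc7a11 over Slc3a2 was -1.67 ± 0.19 (SD, n = 2). It was -0.20 by CPM and -2.08 in the second quantification, with Slc7a11 below in each. Slc3a2 was the highest of the 11 other glutathione genes, of which 8 reached 1 TPM and 5 reached 10 TPM. Gsta4, a glutathione transferase, was the lowest, at 0 counts in both libraries and so below the floor of 3 counts.

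Gclc (ENSMUSG00000032350.9, chr9:77754535-77794485, plus strand), the catalytic subunit of glutamate-cysteine ligase, had 2.52 and 2.34 TPM from 183 and 157 expected counts. Gclm (ENSMUSG00000028124.15, chr3:122245557-122270732, plus strand), its modifier subunit, had 2.97 and 0.72 TPM from 81 and 47 expected counts. Their log2 difference had opposite signs in the libraries, 0.24 in replicate 1 and -1.70 in replicate 2, so the first quantification does not order the subunits. The TPM of Gclm moved far more than its scaled count, whose log2 ratio was 0.30 with a 95% counting interval from -0.23 to 0.86. Beside this, the effective length given to Gclm was 1121 bases in replicate 1 and 2798 in replicate 2, and the short retained-intron transcript Gclm-205 was given 9.38 counts and 1.33 TPM in replicate 1 and 0 in replicate 2. The deposited credible bounds, which belong to another estimate of the TPM than the one printed and have no stated level, ran from 2.21 to 5.51 TPM in replicate 1 and from 0.79 to 2.93 TPM in replicate 2. In the second quantification Gclm had 0.92 and 0.75 TPM and Gclc 1.15 and 1.78 TPM, with Gclc above in both libraries.

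In the thioredoxin branch, Txnrd1 was abundant and Srxn1 moderate. Txnrd1 (ENSMUSG00000020250.10, chr10:82833951-82897712, plus strand) encodes cytosolic thioredoxin reductase, which recharges thioredoxin with electrons from NADPH. It had 161 and 91.5 TPM from 9569 and 5300 expected counts, and ranked 262 and 341. The mitochondrial enzyme Txnrd2 had 3.48 and 1.85 TPM, so Txnrd1 stood 5.58 ± 0.07 log2 units above it (SD, n = 2), a 47.8-fold difference, and 6.17 log2 units above it by CPM. Srxn1 (ENSMUSG00000032802.8, chr2:152105516-152111376, plus strand) encodes sulfiredoxin, which repairs over-oxidised peroxiredoxins. It had 14.0 and 13.8 TPM from 888 and 810 expected counts, with a log2 ratio to Txnrd1 of -3.12 ± 0.56 (SD, n = 2). Of the 10 thioredoxin and peroxiredoxin genes listed beside them, 9 reached 1 TPM and 4 reached 10 TPM, with Prdx5, a peroxiredoxin, highest by its mean at 69.8 and 34.7 TPM and Txnrd3, a reductase known from testis, lowest at 0.69 and 0.54 TPM. In replicate 2 Prdx1, with 55.8 and 42.8 TPM, was above Prdx5. Txnrd1 was thus above every one of these 10 genes in both libraries.

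Txnrd1 RNA was spread over its annotated starts. Transcripts of the second start, whose window holds the core printed above, had 104 TPM in replicate 1 and 57.0 TPM in replicate 2, which were 64.7% and 62.3% of the gene. Those of the first start had 13.6 TPM in each library, or 8.46% and 14.9%. Those of the third start had 32.7 and 15.9 TPM, or 20.4% and 17.4%. The second start led in both libraries, and in the second quantification it led with smaller shares of 45.9% and 49.1%. There the first start had 24.2% and 27.1% and the third 23.3% and 17.7%, which put the first start above the third in both libraries. In that quantification the retained-intron transcript Txnrd1-202 held 19.2 and 17.7 of the second start's 33.1 and 29.7 TPM. Without Txnrd1-202 the second start was below the first in both libraries, whose transcript Txnrd1-205 had 17.4 and 16.4 TPM. In the first quantification the second start led without Txnrd1-202 as well. Transcripts that differ only in their first exons share most of their reads, so these shares rest on how each quantifier divided them.

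Of the heme and quinone enzymes, Hmox1 was moderate and Nqo1 near the floor. Hmox1 (ENSMUSG00000005413.8, chr8:75093621-75100589, plus strand) encodes the inducible heme oxygenase, which breaks heme into biliverdin, carbon monoxide and iron. It had 15.7 and 15.8 TPM from 521 and 494 expected counts. Its constitutive counterpart Hmox2 had 7.98 and 7.41 TPM, so Hmox1 stood 1.03 ± 0.08 log2 units above it (SD, n = 2), a 2.05-fold difference larger than the spread, and 0.52 log2 units above it in the second quantification. Of 6 other heme and iron genes, all reached 1 TPM and 5 reached 10 TPM. Fth1, the ferritin heavy chain, was highest at 943 and 554 TPM, a value that near-identical processed pseudogenes make uncertain, and Hmox2 was the lowest.

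Nqo1 (ENSMUSG00000003849.8, chr8:107388225-107403206, minus strand), a quinone reductase widely used as a readout of NRF2, was nearly undetected, with 6 counts in replicate 1 and 0 counts in replicate 2. That is 0.18 and 0 TPM, where 3 counts would give 0.0914 and 0.0966 TPM. Nqo2, its relative, had 1.83 and 2.67 TPM. In replicate 1 the log2 ratio of Nqo1 over Nqo2 was -3.35, and in replicate 2 no ratio could be formed. Of the 8 quinone and xenobiotic genes listed beside it, 5 reached 1 TPM and 1 reached 10 TPM. That one was Abcc1, an exporter of glutathione conjugates, at 59.9 and 37.9 TPM, and Aox1, an aldehyde oxidase, was lowest at 0.04 and 0.05 TPM.

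Much of the RNA of the abundant genes was assigned to transcripts that are not annotated protein-coding. Among the 6 genes at 10 TPM or more in both libraries, 4 had at least 25% of their TPM on such transcripts in both libraries, where 62.7% of 2797 genes with the same level and such a transcript did. The count for the 6 is therefore near that of genes at large, and the threshold was chosen after the values were seen. In Slc7a11 the share was 80.3% in replicate 1 and 75.4% in replicate 2, and 5.97% of those 2797 genes had a share at or above its mean. In Sqstm1 it was 46.4% and 41.6%, in Nfe2l2 41.7% and 39.6%, and in Txnrd1 36.5% and 35.5%, all near the median over genes of 36.5%. In this first quantification Hmox1 had at most 0.76% and Srxn1 at most 3.04% in either library, and 97.2% and 95.2% of genes lay at or above their means. In the second quantification the share was 2.68% and 2.95% in Hmox1, and 13.6% and 33.1% in Srxn1. By expected counts, in which short transcripts weigh less, the shares were 55.1% and 47.9% in Slc7a11, 28.1% and 26.3% in Nfe2l2, 19.7% and 18.7% in Txnrd1, and 13.3% and 11.0% in Sqstm1. Only Slc7a11 and Nfe2l2 of the 6 then passed 25%.

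**Figure D2:**
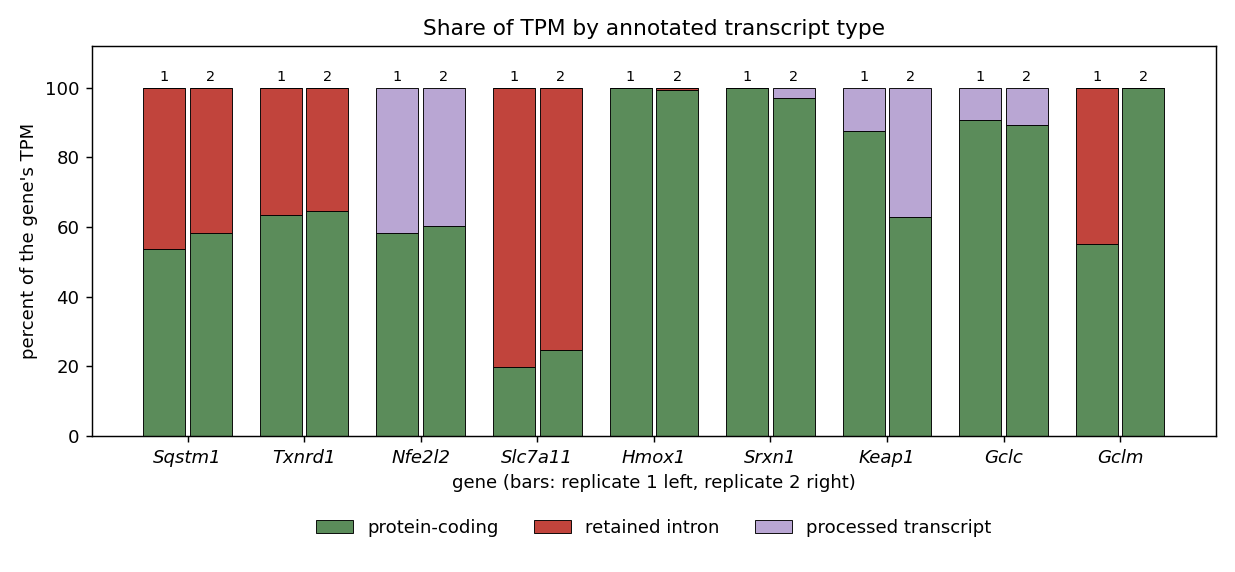
Percent of each gene's TPM in the first quantification on transcripts annotated as protein-coding, retained intron or processed transcript, with replicate 1 as the left bar and replicate 2 as the right bar. Nqo1 is left out because replicate 2 had 0 counts. Slc7a11 had most of its TPM on retained-intron transcripts, and Hmox1 and Srxn1 nearly none off protein-coding transcripts.

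In Slc7a11 that share came from 2 transcripts that end inside introns. Slc7a11-204 is a single exon of 2677 bases that runs on into intron 1, with 2056 bases outside coding-transcript exons, and had 21.3 and 12.8 TPM. Slc7a11-202 ends in intron 6 and has 2018 of its 3162 bases outside those exons, with 20.4 and 12.8 TPM. The full-length coding transcript Slc7a11-201, with 12 exons, had 10.2 and 8.37 TPM. On coding transcripts alone Slc7a11 dropped from place 4 to place 6 among the 10 genes, below Hmox1 with 15.7 TPM in each library and Srxn1 with 14.0 and 13.4 TPM, and it did so in both quantifications.

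Nfe2l2, Txnrd1 and Sqstm1 also had transcripts that hold intron sequence. Nfe2l2-202, a processed transcript with 1321 of its 1447 bases in intron 1, had 52.9 and 32.9 TPM, against 73.9 and 50.3 TPM for the coding Nfe2l2-201. The leading coding transcript Txnrd1-201 had 65.3 and 37.3 TPM, and the leading one outside that class, Txnrd1-202, with 319 of 483 bases in intron 1, had 29.1 and 16.8 TPM. In the second quantification Txnrd1-201 had 5.63 and 6.52 TPM, and Txnrd1-205 led the coding transcripts with 17.4 and 16.4 TPM. The longer Txnrd1-207, which holds sequence of introns 5 and 7, had 19.1 and 10.7 TPM. In Sqstm1, the coding Sqstm1-202 had 230.2 and 181 TPM, and the leading retained-intron transcript, Sqstm1-207, had 80.9 and 58.5 TPM. Sqstm1-203 and Sqstm1-206 overlap coding exons for most of their length, with 87 of 582 and 84 of 457 bases outside them. Their 79.0 and 48.2 TPM and 70.3 and 43.7 TPM thus rest on little sequence of their own. In the second quantification Sqstm1-203 had 59.9 and 48.9 TPM and Sqstm1-207 54.3 and 60.3 TPM, so Sqstm1-203 led in replicate 1. Such transcripts are annotated models, and in these tables their reads and those of unspliced precursor RNA in the same introns cannot be told apart.

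The exon-to-intron boundaries that these transcripts read through are shown because the intron bases are what sets them apart from mRNA. Each run has the last 30 exon bases in lower case and the first 30 intron bases in capitals, 5′ to 3′ on the gene's strand in mm10, and every intron begins with GT, the usual splice donor:
Slc7a11-204, intron 1, chr3:50442955-50443014, minus strand: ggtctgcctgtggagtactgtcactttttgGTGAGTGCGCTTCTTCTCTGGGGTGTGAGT
Slc7a11-202, intron 6, chr3:50417958-50418017, minus strand: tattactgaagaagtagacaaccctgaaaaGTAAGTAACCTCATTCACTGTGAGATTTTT
Txnrd1-207, intron 5, chr10:82879319-82879378, plus strand: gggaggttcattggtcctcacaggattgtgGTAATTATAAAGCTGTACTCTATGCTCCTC
Sqstm1-207, intron 5, chr11:50205993-50206052, minus strand: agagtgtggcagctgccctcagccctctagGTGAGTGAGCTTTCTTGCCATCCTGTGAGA

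**Figure D3:**
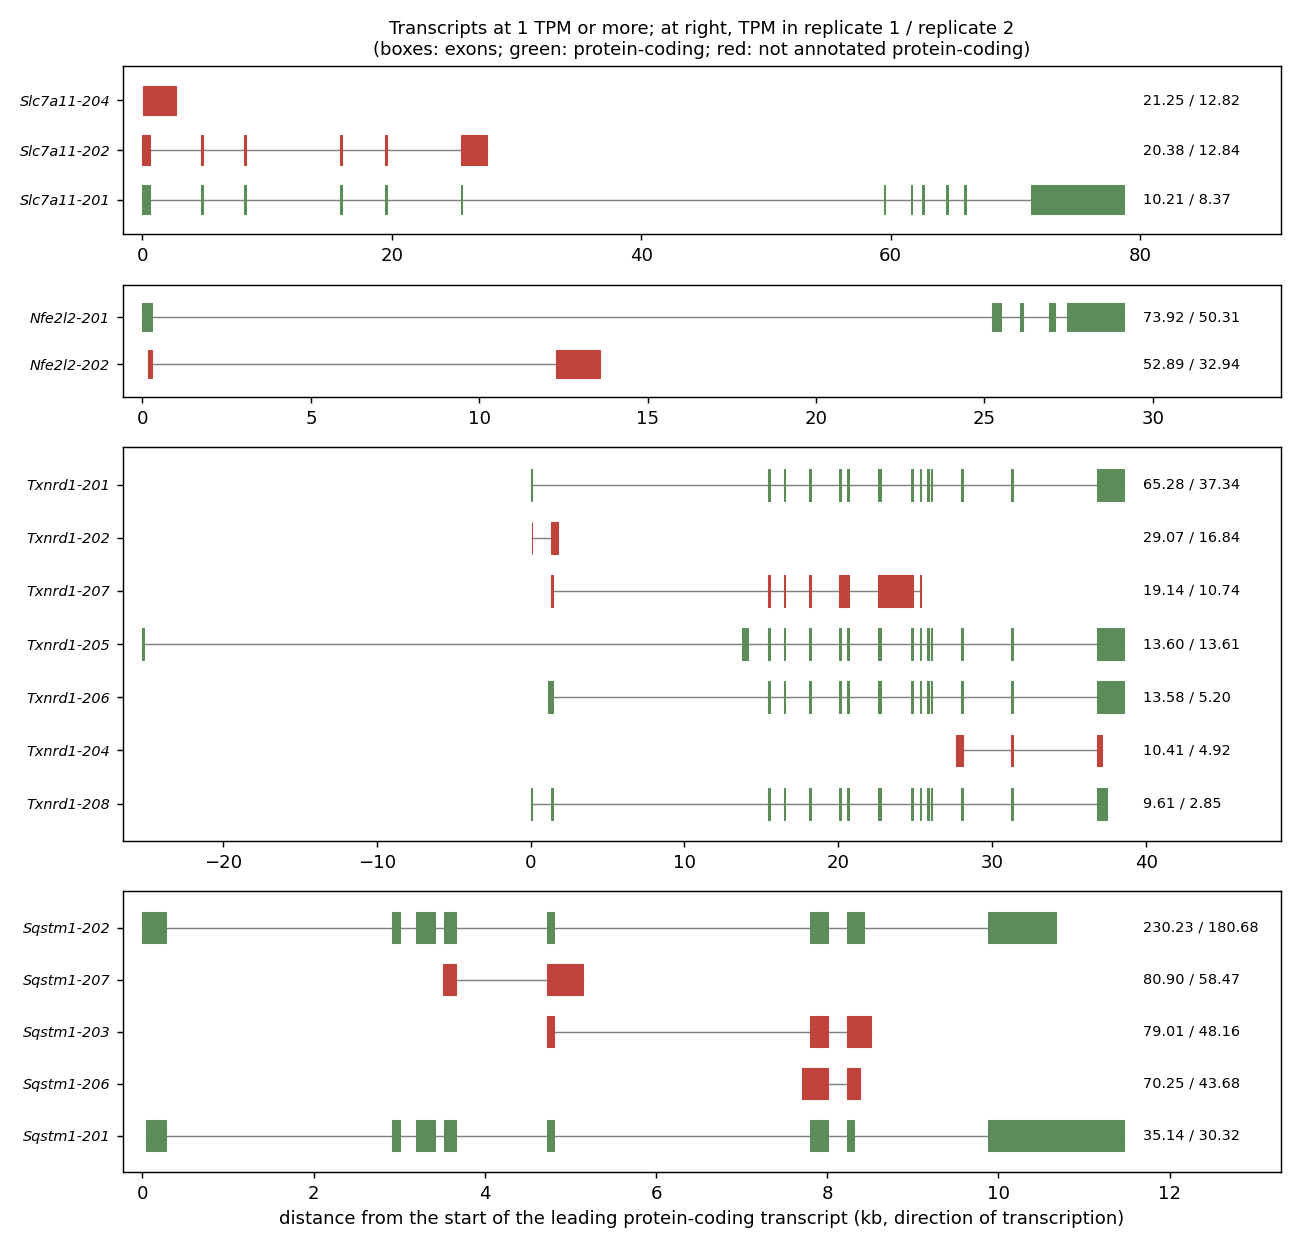
Exon maps of the transcripts of Slc7a11, Nfe2l2, Txnrd1 and Sqstm1 at 1 TPM or more in either library, with distance from the start of the leading protein-coding transcript in kb and TPM of replicate 1 and replicate 2 at the right. Boxes are exons, green for protein-coding and red for other transcripts. The red Slc7a11 transcripts end within the first 30 kb, well before the last exons of the coding transcript.

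The transcripts outside the protein-coding class were also relatively higher in replicate 1 in the first quantification. For the 4 genes with a mean of at least 5 TPM on both kinds, the log2 ratio of replicate 1 over replicate 2 was larger for the non-coding kind in 4 of 4, by a median of 0.20. Among 1847 genes with both kinds it was larger in 53.1%, with a median difference of 0.03. In the second quantification it was larger in 3 of the 4, not in Txnrd1, with a median difference of 0.05. Slc7a11 showed the largest of the 4, with a log2 ratio of 0.68 for its non-coding kind and 0.26 for its coding kind. Values of 4 genes in 1 pair of libraries are a description only, and the starting amount of RNA, which differed between the libraries, was not tested as a source of it.

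Of the 10 genes, 6 are overlapped by another annotated gene, 13 such genes in all. In the first quantification 6 of the 13 were at 0 counts in both libraries, and 2 had at least 100 counts in both. Eid3, a protein-coding gene on the same strand inside Txnrd1, had 1477 and 737 expected counts and 55.1 and 29.1 TPM. Gm37498, an unverified transcript on the same strand inside Slc7a11, 39331 to 43332 bases from its start, had 1181 and 761 expected counts and 12.8 and 8.65 TPM. Reads in these places may belong to the host gene or to the gene inside it, so the values of both are uncertain. On the opposite strand of Gclm, Gm17494 had 17.2 and 5.16 expected counts in the first quantification, against 805 and 709 in the second. A small nuclear RNA gene in an intron of Nfe2l2, Gm24996, had 0 counts in both libraries in the first quantification, against 148 and 185 in the second. Opposite Keap1, Gm16754 had 20.4 and 8.06 expected counts against 226 and 167. Whether strand was used by either quantifier is not given in the sources used here, and the low values of Gclm and Keap1 are read with that limit.

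The replicate libraries stayed within 2-fold of each other for the genes with enough counts. After scaling by TMM, a normalisation for library size and composition, 9 of the 10 had a mean count of 50 or more, and 0 of these 9 lay beyond 2-fold, where 1.18% of 10083 genes did. Scaled counts were higher in replicate 1 for 4 genes and lower for 5. The largest log2 ratios of replicate 1 over replicate 2 were -0.40 for Hmox1, with a 95% counting interval from -0.58 to -0.22, and 0.37 for Txnrd1, with an interval from 0.32 to 0.42. Srxn1 followed at -0.35, from -0.49 to -0.21. The intervals of Keap1, Gclc and Gclm included 0, and those of the other 6 did not, which concerns counting error alone. The median absolute log2 ratio was 0.26 over the 9 genes and 0.18 over all genes tested. The genes higher in replicate 1 were Txnrd1, Nfe2l2, Slc7a11 and Gclm, and those lower in it were Sqstm1, Keap1, Gclc, Hmox1 and Srxn1. For Sqstm1 the log2 ratio was -0.04, and the second quantification gave 0.11, and for Keap1, at -0.20, it gave 0.06. By that quantification 6 genes were higher in replicate 1 and 3 lower.

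**Figure D4:**
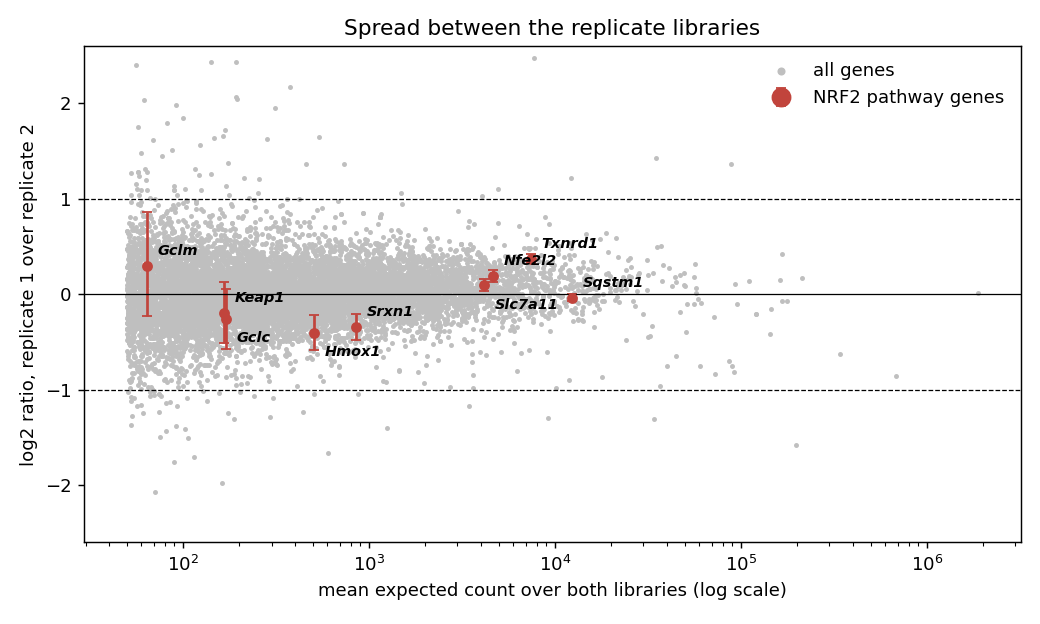
Log2 ratio of scaled expected counts, replicate 1 over replicate 2, against the mean count (log axis) for 10083 genes in grey and 9 of the 10 pathway genes in red, with 95% counting intervals as bars. Dashed lines mark 2-fold, the axis ends at 2.6 and 10 genes lie beyond it. All 9 red points lie between the dashed lines.

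Beside related genes, the 10 were neither uniformly high nor low. The 9 lists of related genes hold 68 genes, of which 56 reached 1 TPM, 33 reached 10 TPM and 7 reached 100 TPM in both libraries, and their median of log2(TPM + 1) was 3.50 ± 0.20 (SD, n = 2), against 3.98 for the 10. The highest list was that of superoxide and hydrogen peroxide genes, with 5 of 7 at 10 TPM or more and 4 at 100 TPM or more. It was led by Cybb, the catalytic subunit of the phagocyte NADPH oxidase, at 482 and 372 TPM, and Sod3, an extracellular superoxide dismutase, was at 0 counts in both libraries. Of 6 NADPH supply genes, 5 reached 1 TPM and 2 reached 10 TPM, from Pgd, an enzyme of the pentose phosphate pathway, at 32.1 and 23.9 TPM down to Me1, malic enzyme, at 0.12 and 0 TPM. The level of the 10 genes spans nearly the whole range of these lists, from Sqstm1, near Cybb, to Nqo1, near Me1.

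**Figure D5:**
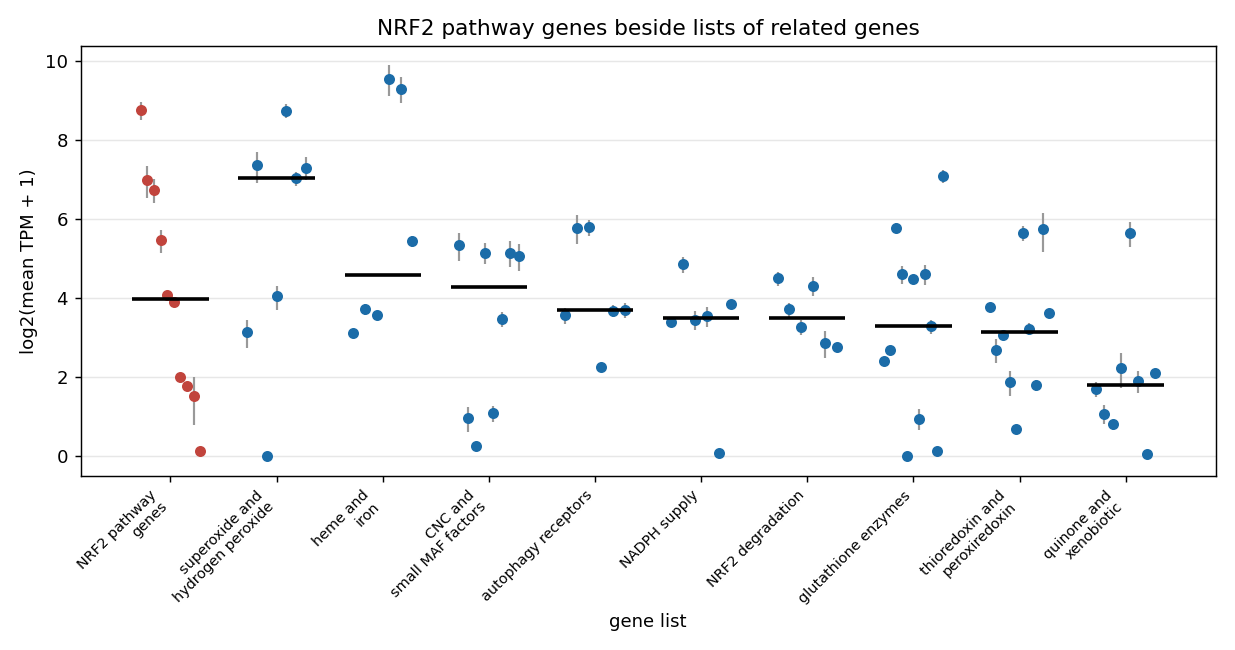
Level of each gene as log2(mean TPM + 1) for the 10 NRF2 pathway genes in red and 9 lists of related genes in blue, ordered by their median. Grey lines join the values of the libraries and black bars are medians. The 10 genes run from Nqo1 near 0 to Sqstm1 at the height of Cybb.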

How the data were processed

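The authors deposited, on mm10 with GENCODE M21 per the description deposited with the files, expected counts and TPM for genes and transcripts, and estimated counts and TPM from a second quantification of transcripts. Expected counts are estimated reads, not normalised. TPM are length-corrected shares of a library. Deposited values for the spread of the TPM estimate (credible bounds and posterior SD) were read for the members only. The sources used here name no aligner, quantifier, version or strand setting. Rows that name no mouse gene, 0.662% of the expected counts of replicate 1 and 0.232% of replicate 2, were left out of library sizes. The second table was summed per gene. Near-identical copies and overlapping genes share reads in an unknown way.

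The 2 libraries form 1 group, so levels are given with their SD and no test or p-value is given. For the replicate ratio, expected counts were rounded, scaled by TMM in edgeR 4.0.16 (R 4.3.3), given an offset of 0.5 and kept at a mean count of at least 50. Intervals are exact binomial at 95%. The calculation of the ratio was tested on simulated counts with planted changes, which does not show how reliable the observed ratios are. Alternatives were size factors of DESeq2 1.42.0, the second table, TPM rescaled over protein-coding genes, CPM, other thresholds, a pseudocount of 0.1 in place of 1, and each library left out. pandas 2.3.3, numpy 2.4.6 and scipy 1.17.1 were used.

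The members, the lists and the pairs were chosen with earlier results of these data known. Genes named are the members, their partner genes in 10 pairs, the highest and lowest of each list, each member's leading transcripts and overlapping genes. Txnrd1-207, Sqstm1-203, Sqstm1-206 and Gclm-205 were named after their values were seen.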

Additional observations from a re-analysis of the deposited data

How the results depend on the processing

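The order of the 10 genes held at its ends, with Sqstm1, Txnrd1 and Nfe2l2 first and Nqo1 last in both quantifications and by CPM. The median log2(TPM + 1) of 3.98 moved to 2.99 in the second quantification, 6.10 with TPM rescaled over protein-coding genes and 5.22 by CPM. It was 3.90 with a pseudocount of 0.1 and 4.75 over genes of at least 1 TPM. Each library alone gave 3.98, a match that rests on the near-equal TPM of Hmox1 and Srxn1. Of the 10 genes 6 reached 10 TPM, 4 in the second quantification and 7 after rescaling, and 1 reached 100 TPM. Of the 68 related genes, 33 reached 10 TPM, 21 in the second quantification and 54 after rescaling. Without a filter on counts, 1 gene, Nqo1, was beyond 2-fold between replicates. The 4 genes with much TPM off coding transcripts became 2 by expected counts and 1 at a threshold of 50%, both in the first quantification. In the second quantification the count stayed at 4 with the threshold of 25%, and Slc7a11 and Sqstm1 were above 50% there. The log2 ratio of Sqstm1 between replicates, -0.04, was 0.11 in the second quantification. The difference between quantifications had a median of 0.84 in TPM and of -0.47 in counts, so the second gave the 10 genes more counts and lower TPM. The causes were not tested. No paired analysis was possible because there is 1 group.

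Depth limits Nqo1, Gclm, Keap1 and Gclc: Nqo1 at 6 and 0 counts and Gclm at 81 and 47 counts carry wide counting error, and a level under the floor of 3 counts was not detectable at this depth.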
